A study of Mus musculus with 4 samples.

Results

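The transcripts of the mitochondrial ribosomal proteins were measured in the livers of 4 mice that carried an ABCA1 transgene, with 1 oligonucleotide array per mouse. The members were all probe sets whose single gene symbol was Mrpl or Mrps followed by a number and at most 1 letter. This gave 127 probe sets for 74 of the 12393 genes measured, 47 named for the large and 27 for the small ribosomal subunit. A gene was given 1 value per mouse, from its probe set with the highest mean log2 signal, so that levels are compared between mice and not between genes. ABCA1 is the membrane transporter that loads cholesterol and phospholipid onto apolipoprotein A-I.

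The 4 mice formed 1 group. All were males of 5 to 6 months, of strain C57BL/6, fed the NIH36 diet, with the genotype given as ABCA1-TG. On the LDL receptor the labels disagree, since the series title gives the -/- background and the sample descriptions give +/-. The sources used here do not give the promoter that drives the transgene. The samples are labelled as biological replicates and taken here as 1 animal each, mouse 1 to mouse 4 after the replicate number. Wild-type controls belong to the stated design but were not analysed here, and nothing below compares transgenic with wild-type liver.

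Mitochondria keep their own ribosome, descended from that of bacteria, which makes the few respiratory chain proteins encoded in mitochondrial DNA. Its RNA comes from the mitochondrial genome, whereas all of its proteins are encoded in the nucleus, made in the cytosol and imported. The large subunit joins amino acids and holds the tunnel through which the new chain leaves, and the small subunit reads the messenger RNA. Liver is rich in mitochondria, and inherited defects of several of these proteins cause disease of liver, heart or brain.

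The arrays carried strong hepatocyte signals. The 9 hepatocyte markers measured had mean log2 signals of 15.35 to 16.17. Mouse 1 stood apart from the others in other respects. Its summed signal of 14 skeletal muscle markers was 1403, against 8087 to 11120 in the others, with 0 of 14 markers above the mean of the other mice; Mb, muscle myoglobin, was at 3.90 log2 there. The 18S ribosomal RNA controls averaged 9.95 log2 in mouse 1, above the 8.75 to 8.98 of mice 2 to 4. For Gapdh the log2 ratio of 3-prime to 5-prime signal was 1.67 there and 1.94 to 2.03 elsewhere. The summed signal of 11 exocrine pancreas markers reached 7569 in mouse 2 and lay between 2081 and 3297 in mice 1, 3 and 4. The part of these differences in the results below was not tested. Tissue pieces were measured whole, so fewer cells of a type and less RNA per cell cannot be told apart.

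Levels of the mitochondrial ribosomal proteins were close between the 4 livers. Genes in the members' range of levels were nearly as close, as given below. The SD of log2 signal between mice was under 0.10 for 15 of the 74 genes, 0.10 to 0.20 for 30, 0.20 to 0.30 for 20 and 0.30 or more for 9. The highest and the lowest mouse differed by a median of 1.30-fold, from 1.02-fold for Mrps23 to 2.02-fold for Mrpl52. A difference over 1.5-fold was found for 16 of 74 members (21.6%), against 50.5% of all genes and 26.5% of the 5894 genes whose mean level lay in the members' range of 8.49 to 12.94 log2. The median SD of the members was 0.17, that of genes in the same range of levels 0.19 and that of all genes 0.26.

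**Figure D1:**
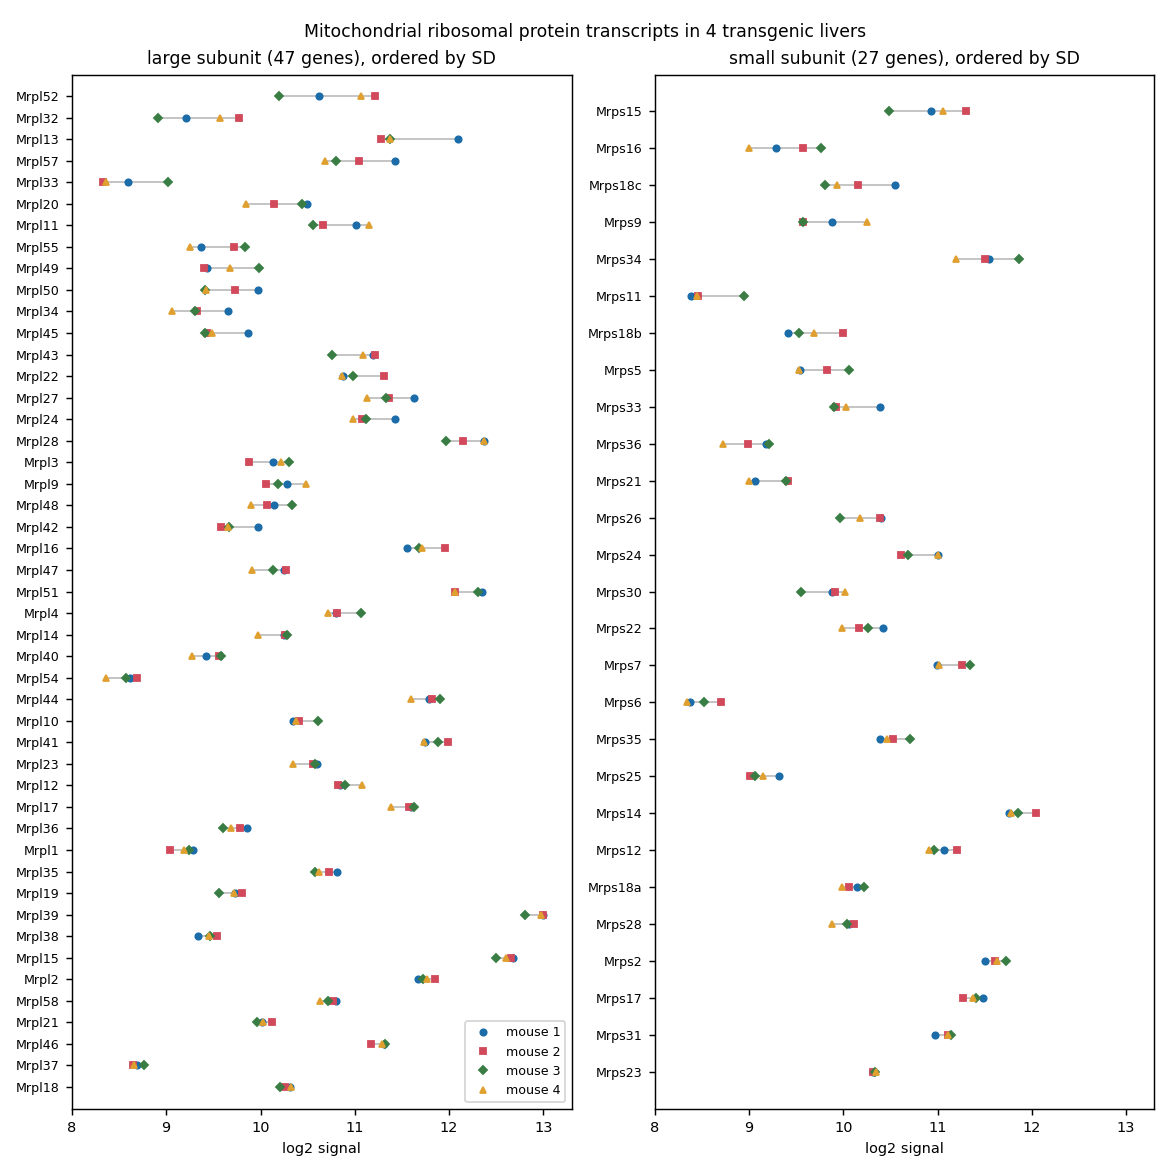
The log2 signal of each of the 74 mitochondrial ribosomal protein genes (rows, ordered by SD) in mouse 1 to mouse 4 (symbols), with a grey line from the lowest to the highest mouse; the left panel holds the 47 large and the right the 27 small subunit genes. Most rows are short: 23 genes differed by under 1.2-fold between the highest and lowest mouse, and the widest, Mrpl52, by 2.02-fold. The median was 1.30-fold, against 1.34-fold for genes in the same range of levels.

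No member varied more between the mice than the test required. For each probe set, limma set the variance over the 4 mice against the variance usual at its mean level (the prior), with Benjamini-Hochberg adjustment across the 22626 probe sets. After adjustment 0 of 74 members and 0 of all probe sets passed at 0.05 (0%), and the members' adjusted p began at 0.977. At an unadjusted p under 0.05 there was 1 member, Mrpl52, against 3.7% of all genes. An SD from 4 mice has a 95% interval of 0.57 to 3.73 times its value, which bounds what such a test can find with 4 arrays. The median ratio of SD to prior SD was 0.91 for the members, 0.93 for genes in their range of levels and 0.96 for all genes.

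**Figure D2:**
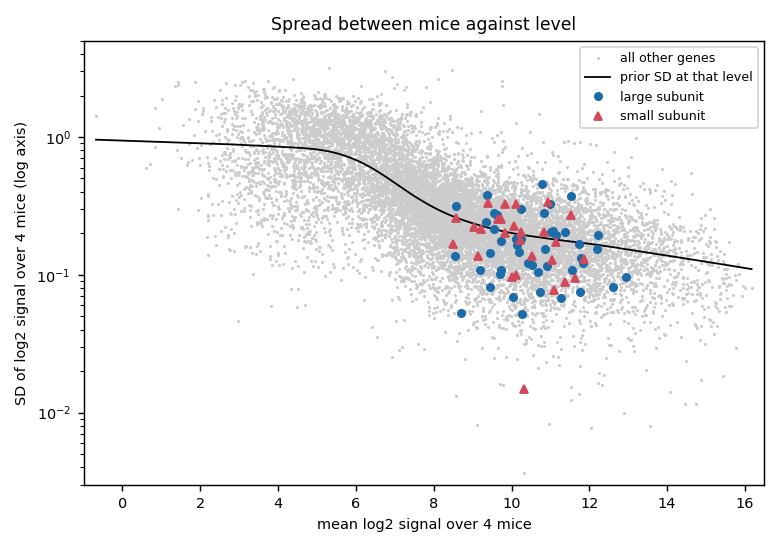
SD of log2 signal over the 4 mice (log axis) against mean log2 signal for each gene, with large subunit genes as circles, small subunit genes as triangles, other genes as grey dots and the prior SD as a black line. The members lie between 8.49 and 12.94 log2, on both sides of the line, at a median of 0.91 times the prior SD.

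The large subunit had a median SD of 0.15 and the small subunit one of 0.20. Relative to the prior at their levels the medians were 0.83 and 0.95. The ratio of SD to prior SD was below 1 for 30 of 47 large and 17 of 27 small subunit genes. Most other genes also lay below 1, since the median ratio was 0.96 for all genes and 0.93 for genes in the members' range of levels. When a gene's probe sets were averaged, the medians were 0.16 and 0.17, and the large subunit's minus the small subunit's was -0.0099 instead of -0.046. No test was made of this difference, because the genes are not replicates.

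Large subunit proteins were listed by role, and the lists may not be complete. SDs were 0.12 to 0.28 in the stalk, 0.096 to 0.21 at the exit tunnel and 0.052 to 0.18 in the central protuberance. Of the 3 stalk proteins, which recruit translation factors, Mrpl12 also binds the mitochondrial RNA polymerase. It measured 10.84, 10.82, 10.89 and 11.07 log2 in mice 1 to 4, a narrow band with mouse 4 on top. Mrpl11 was wider on its chosen probe set, at 11.02, 10.66, 10.56 and 11.15, with mice 1 and 4 above mice 2 and 3. Another Mrpl11 probe set had mice 1 and 4 lowest, at 10.05, 10.42, 10.26 and 10.06. A further one was lowest in mouse 4, at 9.46. Mrpl10 differed by 1.21-fold at most. The 7 proteins listed for the exit tunnel (Mrpl17, Mrpl22, Mrpl23, Mrpl24, Mrpl39, Mrpl44 and Mrpl45) differed between mice by 1.15-fold to 1.37-fold. Mrpl44, a tunnel-exit protein that resembles RNase III, measured 11.79, 11.81, 11.91 and 11.59. Mrpl45, which tethers the ribosome to the inner membrane, was higher in mouse 1, at 9.87, than in mice 2 to 4, at 9.41 to 9.48.

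The central protuberance, where the subunits meet around the transfer RNAs, had the lowest median SD of these groups, at 0.078. The 6 proteins listed for it spanned 1.08-fold to 1.35-fold between mice, and the lists were chosen after the values were seen. These figures hold for the chosen probe sets. Mrpl48 is among the 6, and its other probe set, at a mean of 9.89 log2, had an SD of 0.46. Mrpl18 measured 10.31, 10.26, 10.21 and 10.32, and Mrpl46 measured 11.31, 11.17, 11.32 and 11.28. Neither differed between mice by more than 1.11-fold. Mrpl37, a protein without a bacterial counterpart, was equally flat at 8.69, 8.65, 8.77 and 8.66.

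The widest large subunit genes did not share 1 pattern. Mrpl52 measured 10.62, 11.21, 10.20 and 11.06 in mice 1 to 4, and Mrpl32, which is cut by a mitochondrial protease before it joins the ribosome, measured 9.20, 9.77, 8.92 and 9.57. Both were high in mice 2 and 4 and lowest in mouse 3. Mrpl13 stood alone in mouse 1, at 12.09, since mice 2 to 4 lay between 11.28 and 11.38. Mrpl57 was also highest there, at 11.43, and went through 11.05 and 10.81 to 10.68 in mice 2, 3 and 4. Mrpl33 was highest in mouse 3, at 9.02, against 8.60, 8.33 and 8.36. SDs of these 5 ran from 0.32 to 0.46, and each had an adjusted p of 0.977 (limma). Without mouse 1 the SD of Mrpl13 was 0.058 in place of 0.38. Other probe sets of Mrpl52, Mrpl57 and Mrpl33 put the mice in a different order, as given below.

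In the small subunit, SDs were 0.13 to 0.32 for the proteins listed for the decoding site and the path of the messenger RNA. On the chosen probe sets these were wider than the central protuberance list. Mrps12, at the decoding site, measured 11.07, 11.20, 10.97 and 10.91. Mrps9 measured 9.88, 9.57, 9.57 and 10.25, highest in mouse 4, and Mrps5 measured 9.54, 9.83, 10.06 and 9.53, with mouse 3 on top. Thus the 3 genes had different mice at the top. On the chosen probe sets the steadiest members of the subunit were Mrps23, at 10.33 ± 0.015 (SD, n = 4), Mrps31, at 11.08 ± 0.077 (SD, n = 4), and Mrps17, at 11.38 ± 0.089 (SD, n = 4). The other probe set of Mrps23, at a lower mean of 7.21 log2, had an SD of 0.30.

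The widest small subunit genes again pointed to different mice. Mrps15 measured 10.93, 11.30, 10.49 and 11.05 in mice 1 to 4, with the same order as Mrpl52 and Mrpl32 except that mouse 1 lay nearer to mouse 4. Mrps16 measured 9.29, 9.57, 9.76 and 9.0, lowest in mouse 4. Mrps34 was lowest in mouse 4 too, at 11.20, against 11.55, 11.51 and 11.86. SDs ran from 0.27 to 0.34 over the 5 widest, which also include Mrps9 and Mrps18c. Mutations of MRPS16, MRPS22, MRPS34, MRPL3 and MRPL44 cause inherited defects of mitochondrial translation in people. Mrps22 measured 10.42, 10.16, 10.26 and 9.99, and Mrpl3 10.13, 9.88, 10.30 and 10.22, and each of these genes spans 1.34-fold.

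The 3 Mrps18 genes are paralogs whose products take different places in the ribosome. Mrps18a differed little between mice, at 10.14, 10.06, 10.22 and 9.99. Mrps18b was lowest in mouse 1, at 9.41, against 10, 9.53 and 9.69. Mrps18c was highest in mouse 1, at 10.54, against 10.16, 9.80 and 9.94. The 3 paralogs thus put mouse 1 in different places. Ribosome structures place the products of Mrps18a and Mrps30 in the large subunit despite their names, and Mrps36 is now known as a part of 2-oxoglutarate dehydrogenase. Mrps30 measured 9.88, 9.91, 9.55 and 10.02, and Mrps36 9.18, 8.99, 9.22 and 8.73. With the first pair moved and Mrps36 left out, the median SDs of the large and small subunit were 0.15 and 0.19.

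Taking each mouse against the mean of the other 3, the members leaned upward in mouse 1 and downward in mouse 4. In mouse 1, 46 of 74 members were higher (62.2%), against 42.8% of all genes, and their median deviation was 0.047 log2 against -0.051. In mouse 4, 24 of 74 were higher, against 42.9% of all genes, with medians of -0.087 and -0.058. In mouse 2, 40 of 74 were higher against 57.9% of all genes, and in mouse 3, 36 of 74 against 59.8%. The shifts are small beside the spread of single members, whose quartiles in mouse 1 were -0.12 and 0.19. Among genes in the members' range of levels, 41.7%, 52.7%, 57.9% and 47.7% were higher in mice 1, 2, 3 and 4. Mouse 1 is also the array with the lowest muscle signal and the highest 18S signal, and the part of these in the shift was not tested.

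The scaling of the arrays changes these counts. With the arrays shifted to the same median signal, the median of all genes moved by 0.14 in mouse 4 and by -0.12 in mouse 3. Of the 74 members, 70.3%, 36.5%, 29.7% and 55.4% were then higher in mice 1 to 4 (52, 27, 22 and 41 genes), against 52.1%, 46.2%, 47.2% and 59.4% of all genes. Mice 2 and 4 thus changed side of 0, though in mouse 4 the members' share stayed below that of all genes. Quantile normalization gave 64.9%, 56.8%, 41.9% and 33.8% of members (48, 42, 31 and 25 genes), against 48.1%, 53.0%, 52.8% and 50.4% of all genes. Under all 3 scalings the members' share was above that of all genes in mouse 1 and below it in mice 3 and 4, and mouse 2 lay on either side.

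The medians of the 2 subunits lay within 0.067 log2 of each other in each mouse. In mouse 1, 32 of 47 large subunit genes and 14 of 27 small subunit genes were higher, with medians of 0.064 and 0.030. In mouse 3 the large subunit had 20 of 47 higher and a median of -0.033, and the small subunit 16 of 27 and 0.034. Without mouse 1 the large subunit median of mouse 3 was 0.043 instead. In mouse 2 the medians were 0.048 and 0.035, and in mouse 4 they were -0.085 and -0.11. The lowest of the 4 mice was mouse 1 for 4 of 47 large subunit genes (28.9% of all genes), mouse 2 for 11 (20%), mouse 3 for 14 (20.4%) and mouse 4 for 18 (30.7%). The highest was mouse 1 for 17 (17.4% of all genes), mouse 2 for 12 (29.8%), mouse 3 for 13 (33.5%) and mouse 4 for 5 (19.3%). In the small subunit the lowest was mouse 1 for 7 of 27, mouse 2 for 4, mouse 3 for 6 and mouse 4 for 10.

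**Figure D3:**
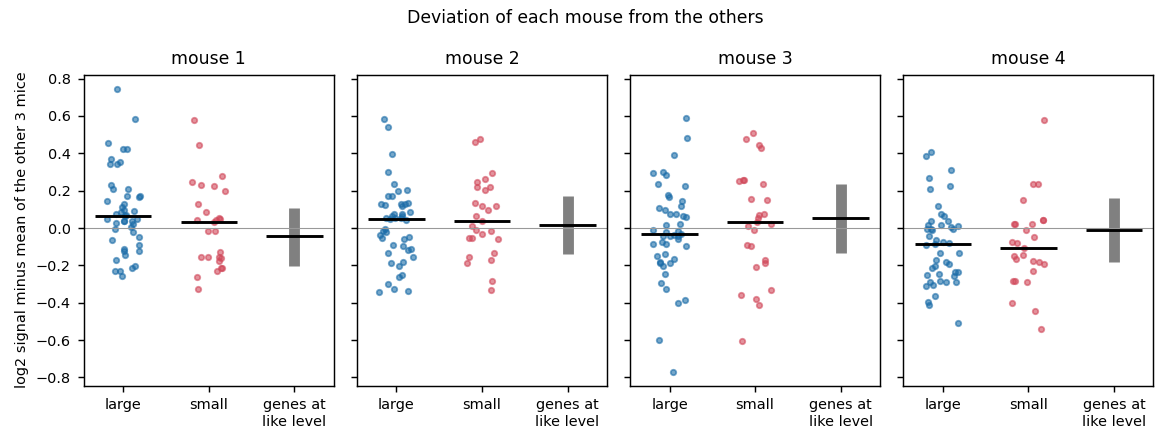
Log2 signal of each mouse minus the mean of the other 3, with 1 dot per large or small subunit gene and black bars for medians; the grey bar runs from the lower to the upper quartile of the 5894 genes in the same range of levels. The medians of both subunits lie within 0.11 log2 of 0 in all 4 mice, and those of mice 2 and 4, and of the small subunit in mouse 3, change sign when the arrays are shifted to the same median.

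For 33 members, 2 or more probe sets allowed a check of whether a difference between mice was shared by a gene's probe sets. The variance between mice common to the probe sets was compared with their disagreement in an F-test with limma's moderated variance. Of 4956 genes with several probe sets 0.383% passed after Benjamini-Hochberg adjustment, and of the 33 members 0 did. At an unadjusted p under 0.05 there were 2 of 33, Mrpl13 and Mrpl48, against 9.12% of all such genes. A difference shared by probe sets may lie in the animal or in its array.

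Mrpl13 came nearest to a shared difference. Its 3 probe sets measured 12.09, 10.04 and 8.45 in mouse 1, each the highest of the 4 mice. In the other mice they measured 11.28 to 11.38, 9.35 to 9.80 and 7.47 to 7.92. Averaged over probe sets, mouse 1 lay 0.48 log2 above the gene's mean, and mice 2 to 4 lay 0.16 below it (unadjusted p = 0.0066, adjusted p = 0.290, limma moderated F-test, n = 4). Mrpl48, of the central protuberance, was lowest in mouse 4 on both probe sets, at 9.90 and 9.26, against 10.07 to 10.34 and 9.85 to 10.29 (adjusted p = 0.542, limma moderated F-test).

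For several of the widest genes, another probe set put the mice in a different order. For Mrpl52 the other probe sets with mean log2 signals above 7 were highest in mouse 1, at 8.85 and 8.01, where the chosen one was below its mean. Mrps9 was highest in mouse 4 on the chosen probe set, at 10.25, and lowest there on another, at 7.0 against 8.12 to 8.45. Mrps15 measured 10.49 in mouse 3 on the chosen probe set, its lowest, and 10.85 on the other, tied with mouse 4 at the top. Mrpl57, highest in mouse 1 on the chosen probe set, was lowest there on the other, at 7.97 against 8.07 to 8.45. Mrpl33, highest in mouse 3, was lowest there on its other, weak probe set, at 5.86 against 6.09 to 7.48. The 7 probe sets of Mrpl15 had mean levels of 4.48 to 12.61, and the 3 of highest level differed between mice by SDs of 0.081, 0.24 and 0.084. Among the 20 members with 2 probe sets, both named the same highest mouse for 4 (20%) and the same lowest mouse for 6 (30%), against 33.1% and 30% of the 3057 genes with 2. Over all 33 members the shares were 18.2% and 21.2%, against 23.9% and 21.7% of all genes with several probe sets.

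**Figure D4:**
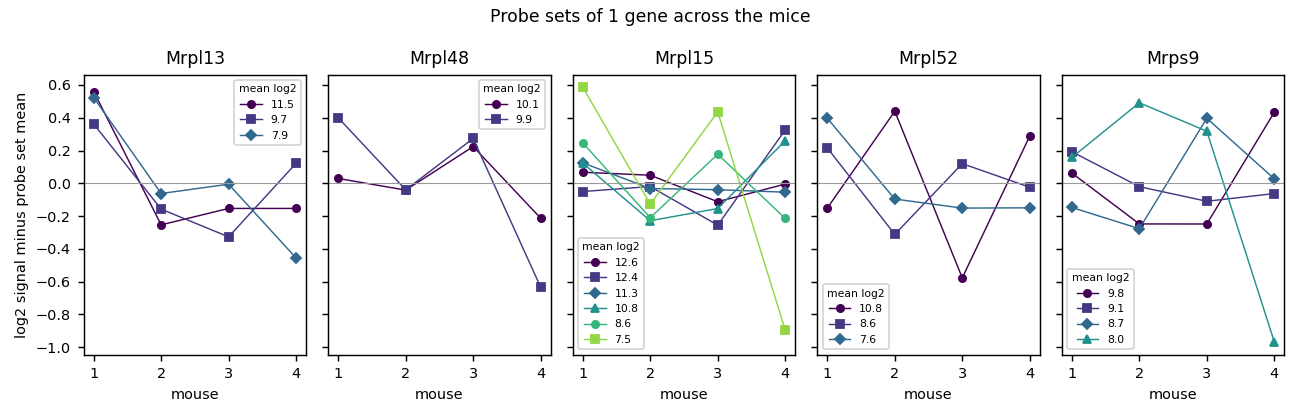
Log2 signal minus the probe set's own mean in mice 1 to 4, with 1 symbol and line per probe set with a mean log2 signal above 7 (means in the legends), for 5 genes; lines only join the values of a probe set. The 3 probe sets of Mrpl13 are all highest in mouse 1, whereas those of Mrpl52 and Mrps9 name different mice.

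Proteins that work with the mitochondrial ribosome were also measured. Of the proteins that belong to it under other names, Dap3 measured 11.39, 11.15, 11.54 and 11.34 and Ptcd3 measured 10.70, 10.75, 10.98 and 10.95, with Chchd1 and Gadd45gip1 within an SD of 0.14. Among 7 translation factors, Gfm1, the elongation factor that moves the ribosome along, was flat at 12.14, 12.17, 12.13 and 12.23. Tufm, the elongation factor that delivers transfer RNAs, was the widest, at 8.73, 9.48, 10.36 and 8.91, with mouse 3 on top by more than 1.5-fold. In this list 1 of 7 had an unadjusted p under 0.05, against 3.7% of all genes, and 0 passed after adjustment.

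Assembly factors and transfer RNA synthetases had median SDs near that of the ribosomal proteins. Of 16 assembly and ribosomal RNA modification genes 0 had an unadjusted p under 0.05, with a median SD of 0.16. The widest was Mtg2, a GTPase of large subunit assembly, at 8.99, 8.48, 9.48 and 8.61. Of 10 synthetases 0 had an unadjusted p under 0.05, and the median SD was 0.19. The widest of these, Sars2, had low signals of 6.60, 7.08, 6.75 and 7.56.

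Among 14 transcription factors and regulators of mitochondrial genes 1 had an unadjusted p under 0.05 and 0 passed after adjustment. This was Myc, which drives ribosome production of both kinds, at 7.70 in mouse 1 and 9.24 to 9.44 in the others. Ppargc1a, the coactivator that promotes mitochondrial biogenesis, was lowest in mouse 3, at 8.16, against 8.93, 9.20 and 8.93. Tfam, which packages and transcribes mitochondrial DNA, measured 11.39, 11.05, 11.14 and 11.53, and Gabpa, an ETS factor that binds promoters of mitochondrial genes, 10.58, 10.08, 10.51 and 10.76. Nrf1 measured 9.46, 9.74, 9.26 and 9.56. Thus mouse 1 was lowest for Myc and mouse 3 for Ppargc1a and Nrf1, while mouse 2 was lowest for Tfam and Gabpa.

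Many of the genes stand head to head with a neighbour. RefSeq promoters, from 250 bases before to 50 bases after the annotated start (build GRCm38.p6), were found for 65 of the 74 members and for 9784 of all genes measured. A protein-coding gene began on the other strand within 1000 bases upstream of 22 of the 65 members (33.8%), against 10.7% of all genes. Respiratory chain subunits had such a neighbour in 18 of 65 (27.7%) and cytosolic ribosomal proteins in 5 of 35 (14.3%). Among the members it was 16 of 41 in the large and 6 of 24 in the small subunit. One such pair joins both subunits: Mrpl46 and Mrps11 start 41 bases apart. Mrps12 faces Sars2, which charges the mitochondrial serine transfer RNA, and Mrpl43 faces Twnk, the helicase of mitochondrial DNA. Mrpl47 faces the complex I subunit Ndufb5, and Mrpl49 faces Fau, which encodes a protein of the cytosolic ribosome.

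The stretches between the starts of 4 such pairs are shown because they are all the sequence that separates the 2 genes; the search window also reaches outside them. They are written from 5′ to 3′ on the strand of the member named first, with matches to the motifs below in capitals. Mrps11 lies at chr7:78783090-78783130 on the plus strand, Mrpl43 at chr19:45006443-45006557, Mrps12 at chr7:28741822-28741967 and Mrpl32 at chr13:14613038-14613241 on the minus strand.
Mrps11 and Mrpl46: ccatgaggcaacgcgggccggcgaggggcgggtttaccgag
Mrpl43 and Twnk: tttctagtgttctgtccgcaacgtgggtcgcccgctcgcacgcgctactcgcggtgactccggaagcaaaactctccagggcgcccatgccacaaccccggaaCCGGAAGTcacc
Mrps12 and Sars2: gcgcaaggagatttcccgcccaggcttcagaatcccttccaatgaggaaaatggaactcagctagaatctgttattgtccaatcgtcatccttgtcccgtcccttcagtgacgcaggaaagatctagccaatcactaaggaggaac
Mrpl32 and Psma2: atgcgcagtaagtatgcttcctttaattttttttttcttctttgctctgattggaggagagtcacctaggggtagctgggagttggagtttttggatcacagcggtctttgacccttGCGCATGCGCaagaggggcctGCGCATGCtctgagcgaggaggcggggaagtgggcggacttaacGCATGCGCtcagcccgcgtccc

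In 16 head-to-head pairs both genes were measured. The pair had its highest mouse in common in 5 of the 16 and its lowest in 6, and the share in unrelated pairs was not computed. Mrpl47 measured 10.25, 10.27, 10.13 and 9.91 in mice 1 to 4 and Ndufb5 12.55, 12.39, 12.25 and 12.16, both lowest in mouse 4. Mrpl49 measured 9.43, 9.40, 9.98 and 9.68 and Fau 12.29, 12.22, 11.78 and 11.94. On these chosen probe sets the mice that were high for one were low for the other. The other probe set of Mrpl49 did not share this, at 8.89, 8.61, 8.60 and 8.36, highest in mouse 1 as Fau was. Mrps11 was highest in mouse 3 on its chosen probe set, at 8.94, against 8.39, 8.46 and 8.45, and lowest there on its other, weak one, at 5.64. Mrpl46 was nearly flat. Neither gene of any of these pairs passed limma's test of spread.

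Motifs of 3 factors tied to mitochondrial or housekeeping genes were searched as exact letters on both strands of the window. GCGCATGC, the core bound by NRF1, was held by 8 of 65 members (12.3%) against 5.05% of all promoters. CCGGAAGT, bound by ETS factors such as Gabpa, was held by 11 (16.9%) against 7.27%, and AAGATGGC, bound by YY1, by 11 (16.9%) against 4.39%. Any of the 3 was held by 28 members (43.1%) and by 15.6% of all. These letters were also frequent in related lists: any of the 3 was held by 37.1% of 35 cytosolic ribosomal protein promoters and 33.8% of 65 respiratory chain promoters. The ETS share was 22.9% in the former, and the NRF1 share 13.8% in the latter, each above that of the members. The NRF1 letters were found in 7 of 41 large and 1 of 24 small subunit promoters. A match is a description of letters and not of binding, and no other set of letters was searched.

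The motifs differed in where they lay. The YY1 letters stood after the start, in the direction of transcription, in 7 members (10.8%), against 1.95% of all genes. The ETS letters lay in the 100 bases before the start in 7 members (10.8%), against 4.04% of all genes. The NRF1 letters lay in the 150 bases before it in 7 members (10.8%), against 3.55%. These parts of the window differ by motif and were not planned. They may follow where the members' own matches lie, so the shares are a description only. Upstream stretches of 4 members are shown as examples, with the motif in capitals. Mrpl9 lies at chr3:94443288-94443335 and Mrpl3 at chr9:105053229-105053267 on the plus strand, and Mrpl39 at chr16:84735340-84735389 and Mrps22 at chr9:98601680-98601710 on the minus strand.
Mrpl9, NRF1: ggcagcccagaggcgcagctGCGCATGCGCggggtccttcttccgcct
Mrpl39, NRF1: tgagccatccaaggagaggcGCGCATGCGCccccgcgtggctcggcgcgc
Mrpl3, ETS: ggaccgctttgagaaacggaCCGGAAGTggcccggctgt
Mrps22, ETS: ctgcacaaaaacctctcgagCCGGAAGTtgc

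Genes with the NRF1 letters differed in which mouse was lowest. Mrpl32, whose stretch toward Psma2 holds them at 4 positions, of which 2 overlap, was among the widest members and lowest in mouse 3. Mrpl33 holds them too and was highest in mouse 3. Mrpl39 was lowest in mouse 3, at 12.80, against 12.97 to 13 in the others, and Mrpl9 measured 10.28, 10.06, 10.19 and 10.49. On the chosen probe sets the lowest mouse was thus mouse 3 for Mrpl32 and Mrpl39 and mouse 2 for Mrpl33 and Mrpl9. Second probe sets named others: mouse 2 for Mrpl39, at 10.739 against 10.745 in mouse 3, mouse 3 for Mrpl33, at 5.86, and mouse 4 for Mrpl9, at 8.74.

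**Figure D5:**
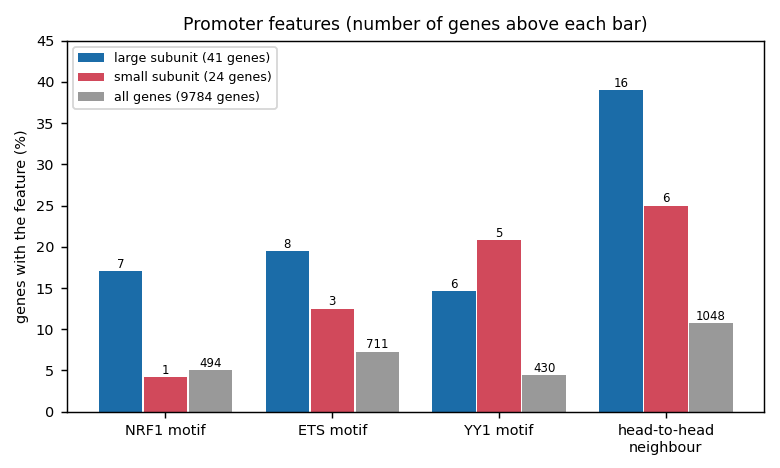
Percentage of genes with a RefSeq promoter that hold each motif in the window around the start or have a head-to-head neighbour within 1000 bases, for the large subunit, the small subunit and all genes measured, with the number of genes above each bar. Head-to-head neighbours were found for 16 of 41 large and 6 of 24 small subunit genes, against 10.7% of all genes.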

How the data were processed

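Liver total RNA (2 ug) was amplified with the RiboAmp procedure, which starts at the poly(A) tail, per the labels' protocols. The deposited values are linear signal intensities, 1 per probe set and array. The submitters' processing notes name RMA, whereas the background treatment is not stated there. The array medians of the deposited intensities ran from 267 to 305, and the lowest signals were 0.1 or 0.2. The arrays thus do not share 1 distribution, and the values were not taken here as normalized RMA output. Log2 was taken of the intensities as they stood, without scaling or a pseudocount, and 64 control probe sets were left out. Gene names came from the platform annotation: 20380 probe sets had 1 symbol, 691 several and 1555 none, and 3 that paired a member with another gene were not used.

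Spread was tested with limma 3.58.1 in R 4.3.3 (a robust prior that follows the mean, upper-tail F, Benjamini-Hochberg adjustment, threshold 0.05). P-values measure only the spread between these samples. The members, gene lists and tests were chosen with earlier results of these data known. Named are the 5 widest and 3 steadiest members of each subunit, the extremes of each mouse and the Mrps18 paralogs. Members with 3 or more probe sets were also picked, but only some of them are described above. Further genes named are a short list by known role, the widest gene of each related list, and Tfam, Nrf1, Gabpa and Ppargc1a. Other genes, the role groups and the head-to-head pairs shown were chosen after their values were seen. Alternatives were 2 further scalings, filters on low or ambiguous probe sets, other priors, averages over probe sets or members, subunits by structure, and leaving out each mouse. Sequences are from RefSeq (GRCm38.p6); protein sequences were not used here.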

Additional observations from a re-analysis of the deposited data

Results flagged for a closer look

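In groups of 4, chance alone sets about 1 in 20 apart by the gap used here (the extreme mouse's distance to the nearest other as a share of the whole range, against Dixon's limit). Of 56 genes picked for naming, not all of them described above, and 3 list medians, 7 results passed that limit. The members past it were 5 of 74 (6.76%), against 5.91% of all genes: Mrpl13, Mrpl14, Mrpl39, Mrpl45 and Mrps11. All of these but Mrpl13 were named after their values were seen. Mrpl13 was at 12.09 log2 in mouse 1 against 11.28 to 11.38 in the others. Mrpl45 was also high in mouse 1, at 9.87 against 9.41 to 9.48. Mrpl14 was low in mouse 4, at 9.97 against 10.25 to 10.28. Myc, no member, was low in mouse 1, at 7.70 against 9.24 to 9.44. In mouse 3, Mrps11 was at 8.94 against 8.39 to 8.46 and Mrpl39 at 12.80 against 12.97 to 13. The other, weak probe set of Mrps11 was lowest in mouse 3, at 5.64 against 5.74 to 6.87. The median deviation of the small subunit was -0.11 in mouse 4 against 0.030 to 0.035 in mice 1 to 3, and it was 0.031 in mouse 4 with the arrays shifted to the same median. Mouse 1 also had the lowest muscle and the highest 18S signals, whose part in these values was not tested.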

How the results depend on the processing

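The counts of members past either test were 0 under every alternative run. The lowest adjusted p of a named gene under any of them was 0.213, with signals under 64 raised to 64. The number of all genes past the test of a shared difference was 19, and it was 51 with arrays shifted to the same median, 40 with a mean log2 of 6 or more, 30 among genes in the members' range of levels (added after seeing the data), 14 after quantile normalization, 1 with the floor at 64, 0 without ambiguous probe sets and 0 to 4 without 1 mouse. Of 11 alternatives, 1 (mean log2 of 6 or more) let 5 probe sets pass the test of spread, and none was the value of a member.

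With arrays shifted to the same median, the median deviations in mice 2, 3 and 4 were -0.044, -0.15 and 0.055 for the large subunit, -0.057, -0.081 and 0.031 for the small and -0.047, -0.12 and 0.054 for all members, which were at 0.11 in mouse 1. Median SDs were 0.16 and 0.18 for the large and small subunit, a difference of -0.015. After quantile normalization the small subunit's was 0.18 and the difference -0.025. Without ambiguous probe sets the large subunit's SD was 0.17, and the large subunit median minus the small was 0.082 in mouse 1 and -0.025 in mouse 4. With probe sets averaged that difference was -0.035 in mouse 2 and -0.050 in mouse 4, the SDs were 0.16 and 0.17 and their difference -0.0099. With means over members the difference in mouse 2 was -0.036. The cause was not tested.

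With 1 mouse left out, the median deviations in mice 1 to 4 ran from 0.046 to 0.089, -0.032 to 0.095, -0.072 to 0.043 and -0.12 to -0.047 for the large subunit. The large minus small difference ran from 0.060 to 0.097, -0.050 to 0.061, -0.061 to 0.016 and -0.0077 to 0.10. Median SDs ran from 0.14 to 0.15 (large), 0.16 to 0.20 (small) and 0.15 to 0.16 (all), and their difference from -0.043 to -0.016. No paired analysis was possible because the study's arrays used here form 1 group. The number of arrays limits the precision throughout.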

Other observations

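Cytosolic ribosomal proteins and respiratory chain subunits leaned more strongly than the mitochondrial ribosomal proteins in mouse 3. Of 40 cytosolic ribosomal protein genes 12 were higher there than the mean of the other mice, with a median of -0.10 log2. Of 79 respiratory chain genes 19 were, with a median of -0.12, against 59.8% of all genes. For mitochondrial ribosomal proteins it was 36 of 74 and -0.0087. In mouse 1 the 3 lists had 29 of 40, 56 of 79 and 46 of 74 genes higher, against 42.8% of all genes. These counts are for the arrays as deposited, without further scaling. No test of a difference between the lists was made.

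Members were also split by the number in their symbol alone, up to 36 in the large and 21 in the small subunit, or higher. The number does not settle whether a protein has a bacterial counterpart. Both sets had a median SD of 0.17, over 42 and 32 genes. In mouse 1, 23 of 42 and 23 of 32 were higher than in the other mice, against 42.8% of all genes.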
